A study of Rattus norvegicus with 8 samples.

Results

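The heat shock chaperones examined here were Hspa8, Hspa4, Hsph1, Dnajb1, Dnaja1, Hspb1, Hsp90aa1, Hsp90ab1, Hspd1 and Hspe1. All probes were taken whose RefSeq accession, without its version, belongs to one of these 10 genes, whatever their values. Of the 10 genes, 9 had a probe, out of 15154 genes with a symbol on the array, and they carried 16 probes, all of which were tested. Dnajb1, which encodes the Hsp40 that works with heat-inducible Hsp70, was matched by no probe and was not analysed here. The list was named cytosolic, but Hspd1 and Hspe1 are known as the chaperonins of the mitochondrial matrix, so it is called heat shock chaperones below.

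The cells were primary neurons of embryonic Sprague Dawley rats (E18, tissue of cortex and hippocampus), cultured for 7 days before treatment. ADDL are soluble oligomers of amyloid-beta, the peptide of Alzheimer plaques, and CAT-SKL is a catalase, the enzyme that removes hydrogen peroxide, with a peroxisomal targeting signal. Gene expression was measured on 8 two-colour arrays, 2 biological replicates per treatment according to the series' design text: CAT-SKL or ADDL by itself, CAT-SKL first and then ADDL (called CAT-SKL+ADDL), and the reverse sequence (called ADDL+CAT-SKL). The study asked which genes respond to ADDL with or without the antioxidant. Each agent was given at 1 µM for 24 h, so the sequential treatments lasted longer than the single ones. The effects of duration and of combining the agents cannot be told apart. The order in a combined name was read as the order of treatment. On every array the treated sample was labelled with Cy5 and vehicle-treated neurons with Cy3, with no dye swap. A log2 ratio above 0 is therefore more signal in the treated sample, or a dye effect of the probe, and these cannot be told apart against vehicle. A dye effect cancels between treatments.

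Heat shock chaperones bind unfolded proteins and help them to fold, keep them from aggregating or pass them on for degradation. In the cytosol, J-domain proteins such as Dnaja1 deliver clients to Hsp70 proteins such as Hspa8, Hsp110 proteins such as Hspa4 and Hsph1 release their nucleotide, and Hsp90 proteins receive clients from Hsp70. Many of these genes are known targets of heat shock factor 1, which binds arrays of inverted GAA units called heat shock elements, and Hspa8 is the constitutive Hsp70 that also uncoats clathrin vesicles in neurons.

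Promoter sequences of 9 of the 10 genes were found in RefSeq on the GRCr8 assembly, all but that of Hsp90aa1. In the 250 bases before the start of transcription, a run of 3 units with 2 free bases between units (GAANNTTCNNGAA or TTCNNGAANNTTC, which together cover both strands) was present in 4 of the 9 promoters, against 0.663% of 33469 promoters of the same length. A run of 2 units (GAANNTTC or TTCNNGAA, also counted inside the longer runs) was present in 7 of 9, against 13.5% of all. The 4 with 3 units were those of Hspa8, Hsph1, Hspd1 and Hspe1, while Dnajb1, Dnaja1 and Hspb1 held runs of 2 only. Neither motif was found in the windows of Hspa4 and Hsp90ab1. Hspd1 and Hspe1 are transcribed away from each other from starts 289 bases apart, and the letters found are the same in both. The promoters of Hspa8, Hsph1 and Hspe1 are shown because they hold runs of 3 units, and only those runs are in capitals. Such a match is a description of letters and not a measured binding site.
Hspa8, chr8:50080264-50080513, + strand: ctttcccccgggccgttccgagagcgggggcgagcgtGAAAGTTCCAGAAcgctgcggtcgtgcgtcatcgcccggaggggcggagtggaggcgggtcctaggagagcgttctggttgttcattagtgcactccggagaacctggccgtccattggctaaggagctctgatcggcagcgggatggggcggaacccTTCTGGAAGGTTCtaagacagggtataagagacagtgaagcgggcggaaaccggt
Hsph1, chr12:10427118-10427367, + strand: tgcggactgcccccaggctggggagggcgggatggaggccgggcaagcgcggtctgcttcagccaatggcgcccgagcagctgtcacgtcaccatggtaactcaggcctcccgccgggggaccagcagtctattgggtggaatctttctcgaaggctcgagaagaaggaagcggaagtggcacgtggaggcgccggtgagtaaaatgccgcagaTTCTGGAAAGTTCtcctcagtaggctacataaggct
Hspe1, chr9:64084077-64084326, + strand: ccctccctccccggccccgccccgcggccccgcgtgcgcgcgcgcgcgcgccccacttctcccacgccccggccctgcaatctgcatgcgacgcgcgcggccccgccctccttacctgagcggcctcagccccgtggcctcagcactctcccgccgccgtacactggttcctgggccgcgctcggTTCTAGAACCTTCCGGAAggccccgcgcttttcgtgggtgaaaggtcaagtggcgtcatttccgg
In the Hspa8 promoter the runs lie at -213 to -201 and at -55 to -43 from the start, counted in bases before it. The Hsph1 run of 3 units lies at -36 to -24, and a separate run of 2 units, in lower case, lies at -105 to -98. In the Hspe1 window overlapping runs span -65 to -48, which is -242 to -225 from the start of Hspd1.

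Over all probes, 73.3% to 81.0% were well above background in Cy5 and 71.5% to 77.4% in Cy3, and no spot was saturated. The number of arrays limits the precision. The differences between the CAT-SKL+ADDL arrays at the first spots of probes did not recur at the second spots (r = 0.00741, against 0.271 to 0.678 for the 27 other pairs of arrays). These arrays were averaged and counted as 1 sample, which left 7 samples in the fit. All 9 neuronal markers on the array were above background in the vehicle channel of all 8 arrays, and so were 8 of 8 astrocyte and 7 of 8 microglial markers. The same held for 7 of 7 oligodendrocyte lineage, 6 of 7 endothelial and mesenchymal and 5 of 5 dividing-cell markers. With most probes of the array above background, detection alone does not show which cells were present. The medians of the astrocyte markers were 1.03 and 0.24 (log2, treated over vehicle) after CAT-SKL, 0.51 and 1.00 after ADDL, 0.88 and 0.83 after CAT-SKL+ADDL, and 0.31 and -0.04 after ADDL+CAT-SKL. Those of the neuronal markers lay between -0.06 and 0.17, those of endothelial and mesenchymal markers between -0.06 and 0.02, and those of dividing cells between 0.16 and 0.73.

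Among the chaperones the clearest values belonged to 1 probe each of Hspa8 and Hsp90aa1, and no other probe of these genes passed the test. Hspa8 probe 1 rose after CAT-SKL (1.30-fold) and after ADDL+CAT-SKL (1.36-fold), and Hsp90aa1 probe 2 rose after CAT-SKL (1.28-fold). No member passed the test in the other comparisons. The plot of log2 ratios by array shows most probes within a narrow band around 0. Their range over the 8 arrays had a median of 0.263, against 0.275 for all 25296 probes tested. With the spots of a probe averaged, 5 of 16 probes were above 0 on all 8 arrays (Hspa8 probe 1, Hsp90aa1 probes 1 and 2, and both Hspe1 probes), against 7.12% of all probes. None was below 0 on all 8, against 7.99%.

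**Figure D1:**
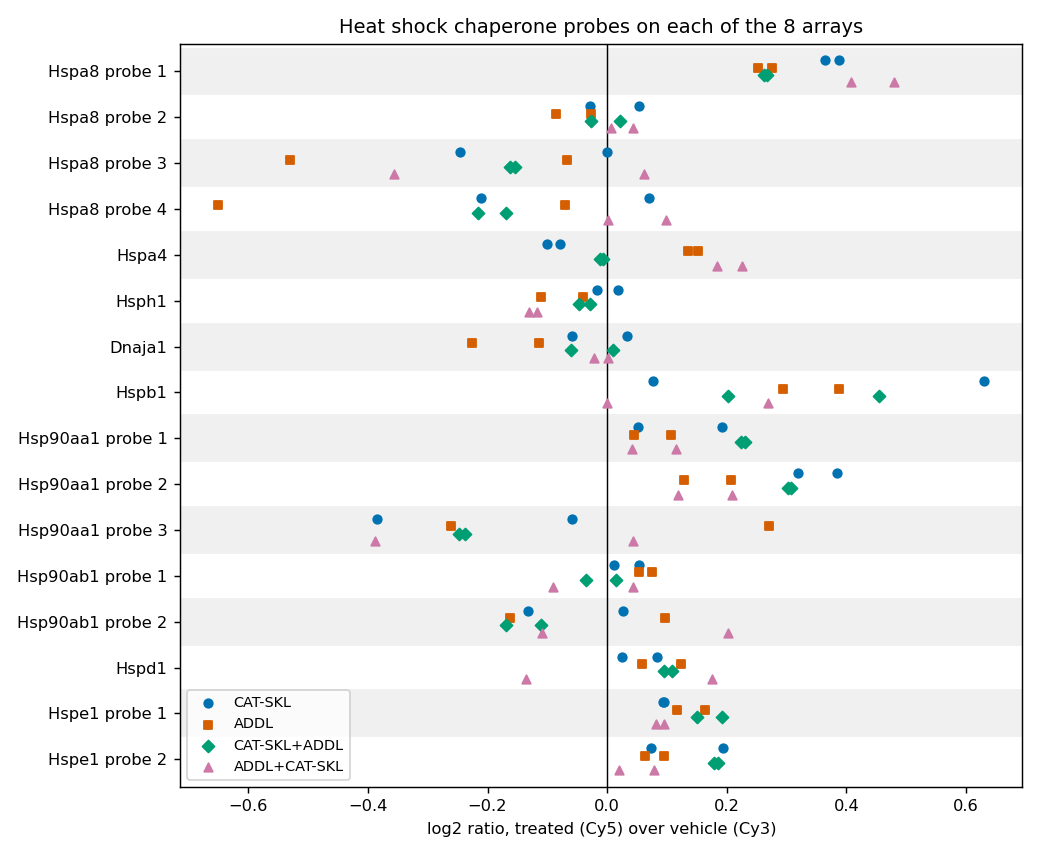
Log2 ratio of treated (Cy5) over vehicle (Cy3) for the 16 chaperone probes (vertical axis), with 1 point per array and colour and shape by treatment. Hspa8 probe 1 lies between 0.25 and 0.48 on all 8 arrays, while Hspb1 spreads from -0.00084 to 0.63.

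Hspa8, the constitutive cytosolic Hsp70, was measured by 4 probes, numbered by their signal. Probe 1 gave log2 ratios of 0.39 and 0.36 after CAT-SKL, 0.28 and 0.25 after ADDL, 0.26 and 0.27 after CAT-SKL+ADDL, and 0.41 and 0.48 after ADDL+CAT-SKL. The CAT-SKL and ADDL+CAT-SKL arrays were all higher than the ADDL and CAT-SKL+ADDL arrays. This order depended on the scaling. On the authors' deposited log ratios, taken to the log2 scale, ADDL+CAT-SKL 2 (0.12) lay below both CAT-SKL+ADDL arrays (0.15 each). With median centring in place of loess the means were 0.63 after CAT-SKL+ADDL and 0.64 after ADDL+CAT-SKL. In raw signal this probe read 71856 to 99803 in Cy5 and 51958 to 60775 in Cy3, where the array medians of the local background were at most 29. Against vehicle, limma with Benjamini-Hochberg adjustment over all probes gave 0.38 ± 0.05 (SE, n = 2 arrays, adjusted p = 0.0295) after CAT-SKL and 0.44 ± 0.05 (n = 2, adjusted p = 0.0497) after ADDL+CAT-SKL. After ADDL it gave 0.26 ± 0.05 (adjusted p = 0.0785) and after CAT-SKL+ADDL 0.26 ± 0.07 (adjusted p = 0.249). The authors' deposited log ratios for this probe were smaller, 0.02 to 0.20 on the log2 scale, and neither call held on them (adjusted p = 0.223 after CAT-SKL and 0.426 after ADDL+CAT-SKL). The call after CAT-SKL was also lost without CAT-SKL 1 (adjusted p = 0.389) or CAT-SKL 2 (0.0609). That after ADDL+CAT-SKL was lost without any 1 array of the CAT-SKL, ADDL or ADDL+CAT-SKL groups (adjusted p from 0.0721 to 0.331). In limma the ADDL+CAT-SKL call was also lost without background correction (adjusted p = 0.0943) or without a filter on dim probes (adjusted p = 0.057). Because total RNA of a whole culture was measured, a change per cell and a change in the make-up of cells cannot be told apart here or below. The astrocyte marker medians given above also differed between arrays, and their part in these values was not tested.

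The other Hspa8 probes gave other values. Probe 2 stayed between -0.09 and 0.05 on the 8 arrays. Probe 3 gave -0.25 and -0.00036 after CAT-SKL, -0.53 and -0.07 after ADDL, -0.16 and -0.15 after CAT-SKL+ADDL, and 0.06 and -0.36 after ADDL+CAT-SKL. Probe 4 gave -0.21 and 0.07, -0.65 and -0.07, -0.22 and -0.17, and 0.10 and 0.00091 in the same order. Both were lowest on ADDL 1. No value of probes 2, 3 and 4 passed the test. With limma, the lowest means were those after ADDL, -0.30 ± 0.13 for probe 3 (adjusted p = 0.264) and -0.36 ± 0.13 for probe 4 (adjusted p = 0.182). Within an array, probe 1 exceeded probe 2 by 0.25 to 0.44, probe 3 by 0.32 to 0.84 and probe 4 by 0.29 to 0.92. Over the 8 arrays the log2 ratios correlated at r = 0.616 between probes 1 and 2, 0.0216 between 1 and 3, 0.515 between 1 and 4, and 0.803 between 3 and 4, a description of values that share arrays and vehicle RNA. Which parts of the transcript the probes cover was not analysed here, and the rise was seen at 1 of the 4 probes.

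**Figure D2:**
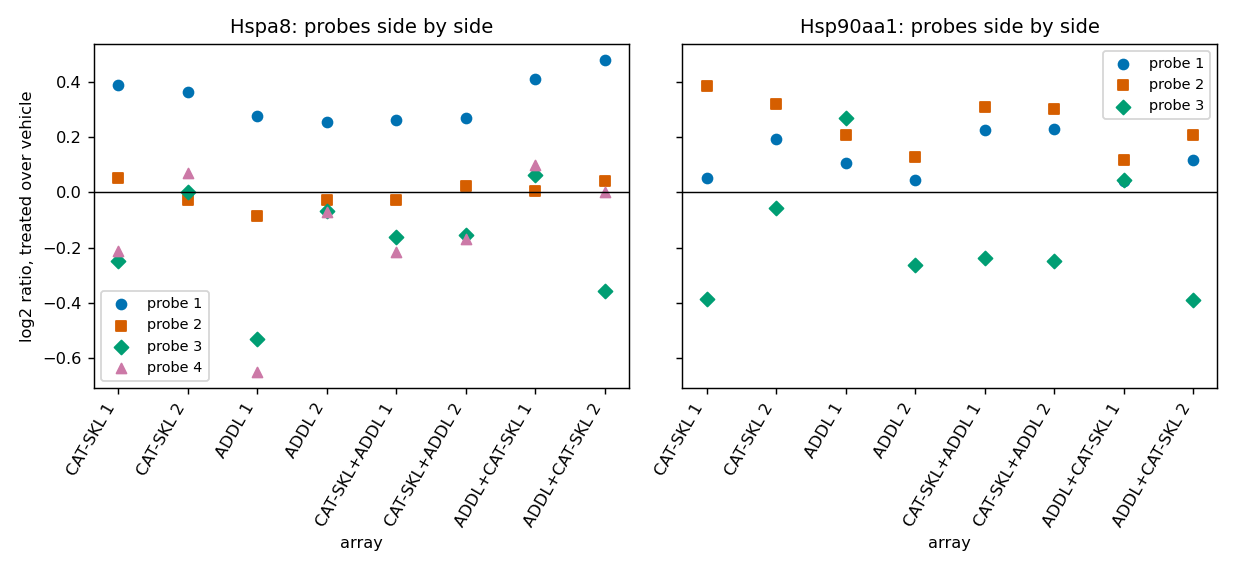
Log2 ratio of treated over vehicle (vertical axis) on each array (horizontal axis) for the 4 probes of Hspa8 (left) and the 3 probes of Hsp90aa1 (right), with 1 point per array and probe. Hspa8 probe 1 lies above its other probes on every array, and on ADDL+CAT-SKL 1 the points of Hsp90aa1 probes 1 and 3 coincide at 0.04.

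The Hsp110 proteins Hspa4 and Hsph1 exchange the nucleotide of Hsp70 and act as holdases. Hspa4 gave -0.10 and -0.08 after CAT-SKL, 0.15 and 0.14 after ADDL, -0.01 and -0.01 after CAT-SKL+ADDL, and 0.18 and 0.23 after ADDL+CAT-SKL. With its spots averaged, arrays of a treatment lay close together and the 4 treatments did not overlap. ADDL+CAT-SKL was highest, followed by ADDL, CAT-SKL+ADDL and CAT-SKL. At the first spots alone, ADDL 1 (0.12) exceeded both ADDL+CAT-SKL arrays (0.09 and 0.10). On the deposited log ratios ADDL (0.16 and 0.17) and ADDL+CAT-SKL (0.23 and 0.16) also overlapped. The CAT-SKL+ADDL arrays were counted as 1 sample in the fit, so their closeness may not show the spread of cultures. Against vehicle Hspa4 did not pass in limma, with 0.14 ± 0.05 after ADDL (adjusted p = 0.191) and 0.21 ± 0.05 after ADDL+CAT-SKL (adjusted p = 0.111). CAT-SKL against ADDL differed by -0.23 ± 0.07, with a 95% interval of -0.40 to -0.07 and a limma adjusted p of 0.554. With median centring in place of loess that difference was -0.05, and CAT-SKL+ADDL against ADDL turned from -0.15 to 0.09, so the order of the treatments depended on the scaling.

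Hsph1 gave -0.02 and 0.02 after CAT-SKL, -0.04 and -0.11 after ADDL, -0.03 and -0.05 after CAT-SKL+ADDL, and -0.12 and -0.13 after ADDL+CAT-SKL. With its spots averaged, 7 of its 8 values were below 0, the ADDL+CAT-SKL arrays lowest. The order differed between spots. At the first spots CAT-SKL 1 was at 0.08, and ADDL 2 (-0.14) lay below ADDL+CAT-SKL 1 (-0.12). At the second spots CAT-SKL 1 and CAT-SKL+ADDL 2 (-0.12 each) lay below both ADDL+CAT-SKL arrays (-0.11 and -0.03). On the deposited log ratios ADDL 2 was lowest (-0.16). It did not pass against vehicle, where the lowest mean was -0.12 ± 0.05 after ADDL+CAT-SKL (limma, adjusted p = 0.280). Hspa4 and Hsph1, though of 1 family, thus had values of opposite sign after ADDL+CAT-SKL.

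Dnaja1, an Hsp40 that hands unfolded proteins to Hsp70, gave 0.03 and -0.06 after CAT-SKL, -0.23 and -0.11 after ADDL, 0.01 and -0.06 after CAT-SKL+ADDL, and 0.0023 and -0.02 after ADDL+CAT-SKL. With its spots averaged, the ADDL arrays were lower than the arrays of the other 3 treatments. This also held at its second spots alone. At its first spots, ADDL 2 (-0.07) lay above CAT-SKL 2 (-0.14) and CAT-SKL+ADDL 2 (-0.15). The mean after ADDL was -0.17 ± 0.06 and did not pass in limma (adjusted p = 0.169).

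Hspb1 encodes Hsp27, a small heat shock protein that holds unfolded proteins without ATP and is known from reactive astrocytes as well as stressed neurons. It gave 0.63 and 0.08 after CAT-SKL, 0.39 and 0.29 after ADDL, 0.45 and 0.20 after CAT-SKL+ADDL, and 0.27 and -0.00084 after ADDL+CAT-SKL. It was above 0 on 7 of 8 arrays, and the CAT-SKL replicates lay farther apart than any pair of treatment means. With limma the means were 0.35 ± 0.12 after CAT-SKL (adjusted p = 0.15), 0.34 ± 0.12 after ADDL (adjusted p = 0.189), 0.33 ± 0.17 after CAT-SKL+ADDL (adjusted p = 0.542) and 0.13 ± 0.12 after ADDL+CAT-SKL (adjusted p = 0.640). The probe was dim, with raw signals of 76 to 140 in Cy5, where the array medians of the local background were 23.5 to 26. The authors' deposited log ratios for it ranged from -0.02 to 1.11 on the log2 scale. They differ from the values above in background, offset and normalisation, and which of these matters was not tested.

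Hspb1 and the medians of astrocyte and oligodendrocyte lineage markers were highest on CAT-SKL 1 and lowest on ADDL+CAT-SKL 2. Between the ADDL arrays they differed in opposite directions. Hspb1 was 0.39 on ADDL 1 and 0.29 on ADDL 2, the astrocyte median 0.51 and 1.00, and the oligodendrocyte lineage median 0.41 and 0.69. In the other treatments Hspb1 and the astrocyte median were both higher on replicate 1. The median of dividing cells was highest on CAT-SKL+ADDL 2 (0.73) and lowest on ADDL+CAT-SKL 2 (0.16). Of the 8 astrocyte markers, 8 were above 0 on 6 arrays, 5 on CAT-SKL 2 and 2 on ADDL+CAT-SKL 2. Their summed level (log2, treated over vehicle) ranged from 0.13 to 0.97 after CAT-SKL, 0.44 to 0.97 after ADDL, 0.74 to 0.81 after CAT-SKL+ADDL and 0.0090 to 0.24 after ADDL+CAT-SKL, and none was at background in vehicle. The medians of the oligodendrocyte lineage markers ranged from -0.09 to 0.82, and those of microglia from -0.13 to 0.16, also highest on CAT-SKL 1. By summed level, the microglial markers were instead highest on ADDL 1 (0.62, against 0.32 on CAT-SKL 1) and lowest on ADDL+CAT-SKL 1 (-0.23). The part of other cell types in the values of Hspb1 was not tested.

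**Figure D3:**
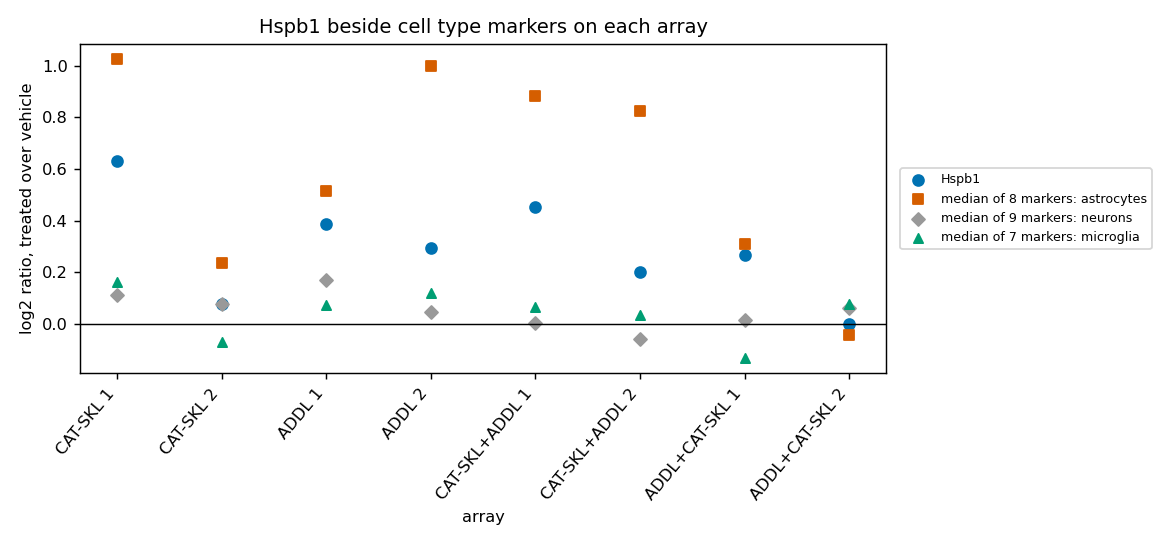
Log2 ratio of treated over vehicle (vertical axis) on each array (horizontal axis) for Hspb1 and for the medians of astrocyte, neuronal and microglial markers. Hspb1 runs from -0.00084 to 0.63 and the astrocyte median from -0.04 to 1.03, and on CAT-SKL 2 the points of Hspb1 and of the neuronal markers coincide at 0.08.

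Hsp90aa1, the stress-inducible cytosolic Hsp90, was measured by 3 probes. Probe 2 gave 0.38 and 0.32 after CAT-SKL, 0.21 and 0.13 after ADDL, 0.31 and 0.30 after CAT-SKL+ADDL, and 0.12 and 0.21 after ADDL+CAT-SKL. With its spots averaged, the CAT-SKL and CAT-SKL+ADDL arrays were all higher than the arrays of the other 2 treatments. This also held at its second spots alone. At its first spots, ADDL+CAT-SKL 2 (0.26) exceeded CAT-SKL 2 (0.24) and both CAT-SKL+ADDL arrays (0.23 and 0.24). Limma gave 0.35 ± 0.06 after CAT-SKL (n = 2 arrays, adjusted p = 0.0358), 0.17 ± 0.06 after ADDL (adjusted p = 0.169), 0.31 ± 0.08 after CAT-SKL+ADDL (adjusted p = 0.234) and 0.16 ± 0.06 after ADDL+CAT-SKL (adjusted p = 0.196). The limma call after CAT-SKL was lost on the deposited log ratios (0.33, adjusted p = 0.186) and without background correction (0.36, adjusted p = 0.0516). It was also lost without any 1 array of the CAT-SKL, ADDL or ADDL+CAT-SKL groups. Probe 1 gave 0.05 and 0.19, 0.11 and 0.04, 0.22 and 0.23, and 0.04 and 0.12 in the same order of treatments. It was highest after CAT-SKL+ADDL (0.23 ± 0.08, adjusted p = 0.357) and passed nowhere. Probe 3 gave -0.38 and -0.06, 0.27 and -0.26, -0.24 and -0.25, and 0.04 and -0.39, below 0 on 6 of 8 arrays. Its replicates after ADDL had opposite signs. Its r over the 8 arrays was -0.0612 with probe 1 and -0.361 with probe 2, while probes 1 and 2 had 0.520.

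Hsp90ab1, the constitutive cytosolic Hsp90, stayed closer to 0. Its probe 1 ranged from -0.09 to 0.08 over the 8 arrays and its probe 2 from -0.17 (CAT-SKL+ADDL 1) to 0.20 (ADDL+CAT-SKL 1). Neither passed in any comparison. The largest mean against vehicle was -0.14 ± 0.13 for probe 2 after CAT-SKL+ADDL (limma, adjusted p = 0.796).

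Hspd1 and Hspe1 form the Hsp60 and Hsp10 rings that fold proteins imported into mitochondria. Hspd1 gave 0.08 and 0.03 after CAT-SKL, 0.06 and 0.12 after ADDL, 0.10 and 0.11 after CAT-SKL+ADDL, and 0.18 and -0.14 after ADDL+CAT-SKL. It was above 0 on 7 arrays, and its highest and its lowest value were the replicates of ADDL+CAT-SKL. Hspe1 probe 1 gave 0.09 and 0.09, 0.16 and 0.12, 0.15 and 0.19, and 0.08 and 0.10, and probe 2 gave 0.19 and 0.07, 0.10 and 0.06, 0.19 and 0.18, and 0.02 and 0.08 in the same order. With spots averaged, both Hspe1 probes were above 0 on all arrays and within 0.10 of each other on each array. Their first spots alone were below 0 on some arrays, down to -0.06 for probe 1 and -0.01 for probe 2. The largest means were those after CAT-SKL+ADDL, 0.17 ± 0.07 for probe 1 (adjusted p = 0.437) and 0.18 ± 0.08 for probe 2 (adjusted p = 0.451), and in limma neither passed against vehicle.

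Of the 16 probes, 9 were printed as 2 spots on each array, which allows a check within the array. The second spot of Hspe1 probe 1 exceeded the first on 8 of 8 arrays, by 0.18 on average, with first spots at -0.06 to 0.14 and second spots at 0.12 to 0.31. Hspe1 probe 2 differed by 0.12 and Hsp90aa1 probe 2 by 0.12, each on 7 of 8 arrays, and Hspa4 by 0.11, also on 7 of 8. For these probes the difference between spots of the same array was thus of the size of many differences between treatments. The size of the mean difference had a median of 0.062 over the 9 probes, against 0.040 over 13221 probes with 2 spots. Hspa8 probe 1 had 1 spot and could not be checked in this way.

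**Figure D4:**
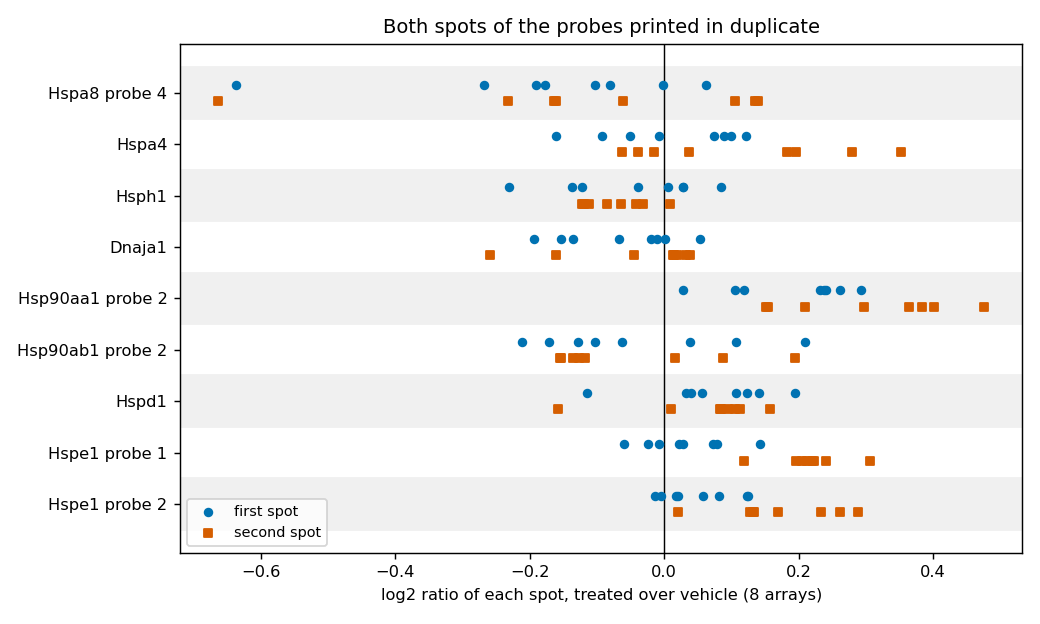
Log2 ratio of treated over vehicle for each spot of the 9 chaperone probes printed in duplicate (vertical axis), with 8 points per spot position, 1 per array. The second spots of Hspe1 probe 1 (0.12 to 0.31) lie to the right of most of its first spots (-0.06 to 0.14).

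Against vehicle, 2 of 16 chaperone probes rose and 0 fell after CAT-SKL, while 2.19% of all probes were called in either direction, 0.636% higher and 1.55% lower. At an unadjusted p below 0.05, 4 were higher (9.25% of all probes) and 0 lower (11.6%). Of all 16, 10 were above 0, and their median was 0.02 against -0.0027 over all probes. After ADDL+CAT-SKL 1 of 16 rose, Hspa8 probe 1, where 0.296% of all probes were called and 0.158% rose. At an unadjusted p below 0.05, 3 were higher (7.72% of all) and 1 lower (9.41%). The members' median was 0.05 against -0.0037. After ADDL limma called 0 of 16 members and 0% of all probes. At an unadjusted p below 0.05, 5 members were higher (9.3% of all probes) and 3 lower (9.4%). After CAT-SKL+ADDL it also called 0 of 16 and 0% of all, and at an unadjusted p below 0.05, 4 were higher (5.09% of all) and 0 lower (6.02%). The members' median was 0.07 after ADDL, with 10 of 16 above 0, and -0.0060 after CAT-SKL+ADDL, with 7 of 16 above 0. These medians depended on the scaling: with each array centred on its median in place of loess, 15 of 16 members were above 0 after CAT-SKL and also after CAT-SKL+ADDL, with medians of 0.25 and 0.30. The 5 probes above 0 on all 8 arrays were so under loess, without background correction, on the deposited log ratios and with median centring, which added Hspa4. All 4 comparisons share the use of vehicle RNA in Cy3.

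**Figure D5:**
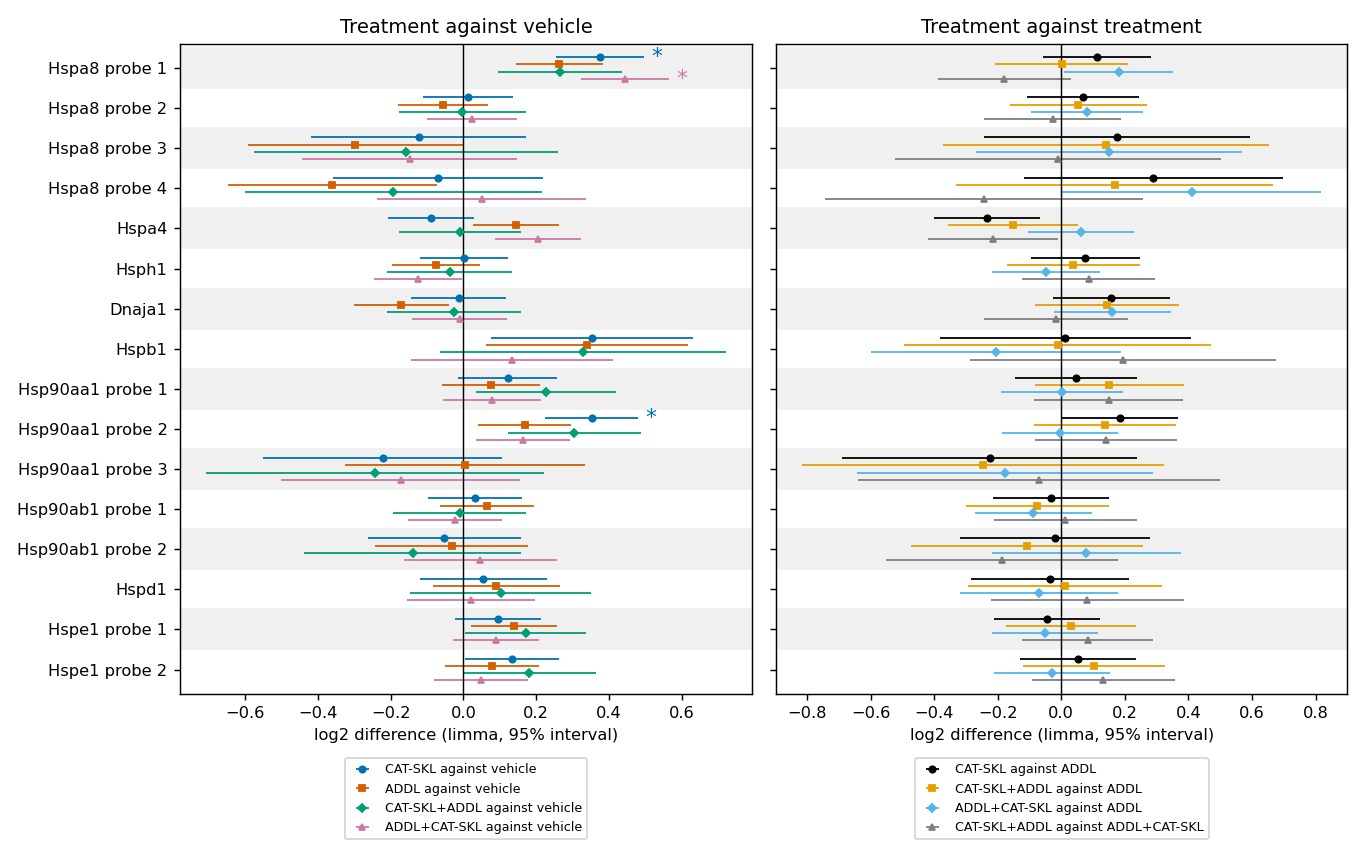
Log2 difference of each chaperone probe (vertical axis) with its 95% interval from limma, for each treatment against vehicle (left) and for treatment against treatment (right); a star marks an adjusted p below 0.05. The stars stand at Hspa8 probe 1 (0.38 after CAT-SKL, 0.44 after ADDL+CAT-SKL) and at Hsp90aa1 probe 2 (0.35 after CAT-SKL), and none stands on the right.

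Between treatments limma called 0 of 16 members in each of the 4 comparisons, and 0% of all probes. At an unadjusted p below 0.05, CAT-SKL against ADDL had 1 member higher, Hsp90aa1 probe 2 (0.18 ± 0.08, 95% interval 0.0018 to 0.37), and 1 lower, Hspa4, beside 3.47% of all probes higher and 5.08% lower. ADDL+CAT-SKL against ADDL had 2 higher, Hspa8 probe 1 (0.18 ± 0.07, interval 0.0095 to 0.35) and probe 4 (0.41 ± 0.18, interval 0.0027 to 0.82), and 0 lower, beside 3.82% and 4.48% of all. CAT-SKL+ADDL against ADDL had 0 in either direction, beside 1.43% higher and 2.37% lower, with the difference of Hspa8 probe 1 at 0.00074 (interval -0.21 to 0.21). CAT-SKL+ADDL against ADDL+CAT-SKL had 1 lower, Hspa4 (-0.21 ± 0.09, interval -0.42 to -0.0096), and 0 higher, beside 2.73% of all lower and 2.87% higher. Whether CAT-SKL came before or after ADDL, no chaperone was called different from ADDL alone. The widest intervals still include sizeable differences, such as -0.82 to 0.32 for Hsp90aa1 probe 3 in CAT-SKL+ADDL against ADDL. Median centring in place of loess turned the sign of 4 to 6 of the 16 differences in each of these comparisons, and in ADDL+CAT-SKL against ADDL 14 in place of 8 were above 0.

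Arrays of both groups did not overlap for 4 members higher and 3 lower in CAT-SKL against ADDL, where 18.5% of all probes were higher and 21.3% lower in that way. The counts were 4 higher and 2 lower in CAT-SKL+ADDL against ADDL (22.4% and 24.5% of all), and 5 and 4 in ADDL+CAT-SKL against ADDL (19.5% and 20%). They were 5 and 4 in CAT-SKL+ADDL against ADDL+CAT-SKL (24.2% and 25.2%). These comparisons share arrays, so their counts are not independent.

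Other genes of protein folding were taken from a list of 87, of which 77 were measured, by the brightest probe of each. After CAT-SKL 0 of 77 rose and 2 fell, beside 2.19% of all probes called. Bag2, a cochaperone that inhibits the ubiquitin ligase Chip, gave -0.34 and -0.38 after CAT-SKL (-0.36 ± 0.05, limma adjusted p = 0.0308), and -0.23 to -0.32 on the other 6 arrays. Its other probe gave -0.30 ± 0.08 and did not pass (adjusted p = 0.0748). Trap1, the mitochondrial Hsp90, gave -0.25 and -0.32 (-0.28 ± 0.06, adjusted p = 0.0476) after CAT-SKL and was below 0 on all other arrays too (-0.13 to -0.31). After ADDL+CAT-SKL 1 of 77 rose and 0 fell, beside 0.296% of all probes. That was Hspa4l, an Hsp110 like Hspa4, with 0.38 and 0.45 (0.41 ± 0.06, adjusted p = 0.0497), against 0.08 to 0.26 on the other 6 arrays. These calls were lost on the deposited log ratios (adjusted p = 0.186 for Bag2, 0.204 for Trap1 and 0.345 for Hspa4l). With median centring Bag2 (-0.23, adjusted p = 0.137) and Trap1 (-0.10, adjusted p = 0.596) did not pass. Trap1 and Hspa4l also did not pass without background correction (adjusted p = 0.0834 and 0.0950) or without the filter on dim probes (0.0539 and 0.0568). Without 1 array of the group compared, the adjusted p was 0.0765 to 0.354 for Bag2, 0.174 to 0.425 for Trap1 and 0.237 to 0.341 for Hspa4l. Without 1 array of another group Bag2 passed, while Trap1 and Hspa4l did not where a single-agent array or, for Trap1, an ADDL+CAT-SKL array was left out (adjusted p from 0.0695 to 0.0927). In the other 6 comparisons limma called 0 of 77. At an unadjusted p below 0.05, 8 of 77 were higher and 5 lower after CAT-SKL (9.25% and 11.6% of all probes). They were 7 and 18 after ADDL (9.3% and 9.4% of all), 4 and 4 after CAT-SKL+ADDL (5.09% and 6.02%) and 9 and 10 after ADDL+CAT-SKL (7.72% and 9.41%). Between treatments they were 5 and 0 in CAT-SKL against ADDL (3.47% and 5.08%), 4 and 0 in CAT-SKL+ADDL against ADDL (1.43% and 2.37%), 3 and 1 in ADDL+CAT-SKL against ADDL (3.82% and 4.48%), and 2 and 3 in CAT-SKL+ADDL against ADDL+CAT-SKL (2.87% and 2.73%).

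By group, the 9 measured relatives of Hsp70 had medians of 0.04 after CAT-SKL, 0.01 after ADDL, 0.07 after CAT-SKL+ADDL and 0.0024 after ADDL+CAT-SKL. The 24 Hsp70 cochaperones had -0.04, 0.0081, 0.06 and 0.02, and the 16 Hsp90 paralogues and cochaperones -0.02, -0.09, -0.07 and -0.05. The 12 subunits of TRiC, the cytosolic chaperonin of actin and tubulin, and of prefoldin had 0.03, -0.11, -0.02 and 0.01. The 8 genes of mitochondrial folding had -0.05, -0.10, -0.02 and -0.08, in contrast to the sign of the Hspe1 ratios. The 7 small heat shock proteins (0.000077, -0.02, -0.07 and -0.00054) and the 4 heat shock factors (0.02, -0.02, 0.05 and 0.02) lay near 0. Over all 77 the medians were 0.000077, -0.04, -0.0055 and 0.0026, beside -0.0055 to -0.0027 over all probes. With median centring they were 0.12, -0.04, 0.17 and 0.04, so the sign of several group medians turned, among them that of the Hsp90 cochaperones after CAT-SKL (0.11) and CAT-SKL+ADDL (0.10). After ADDL the medians of the Hsp90 cochaperones, TRiC and mitochondrial folding were below 0 under all 4 scalings. So was that of mitochondrial folding after ADDL+CAT-SKL, and that of the small heat shock proteins after both sequential treatments.

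Hsf1, the main activator of heat shock genes, gave -0.16 and -0.02 after CAT-SKL, -0.07 and -0.14 after ADDL, -0.20 and -0.23 after CAT-SKL+ADDL, and 0.05 and 0.0042 after ADDL+CAT-SKL. It did not pass in any comparison (lowest mean -0.21 ± 0.08, limma adjusted p = 0.372). Bag3, an Hsf1 target that links Hsp70 to autophagy, gave 0.24 and 0.07, -0.06 and -0.03, 0.30 and 0.27, and 0.06 and 0.07 in the same order. Its highest mean, after CAT-SKL+ADDL, was 0.29 ± 0.08 (adjusted p = 0.266). Hspa1a and Hspa1b, the heat-inducible Hsp70 genes, were not analysed here.

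The genes whose pattern was most like that of a member were sought for the 3 members whose brightest probe spanned at least 0.3 over the 7 samples, among 12935 other genes, by Pearson r over those samples. For Hspa4 they were Zbtb38 (r = 0.983), Atic (0.973) and Rbmx2 (0.973), for Hspb1 they were Scx (0.976), Ubap2 (0.976) and Ube2e3 (0.973), and for Hspd1 they were Mcm6 (0.989), Ints4 (0.984) and Luc7l2 (0.969). With 7 samples that share vehicle RNA such values are common: 152 genes exceeded 0.9 with Hspa4, 102 with Hspb1 and 44 with Hspd1.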

How the data were processed

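Total RNA was hybridised to 8 Agilent two-colour arrays. Per the file headers, the deposited scanner files give for each spot its median intensity and that of its local surroundings in both channels, a log10 ratio of Cy5 over Cy3 made with Agilent Feature Extraction 11.5, per the submitters' processing notes and flags for background and outliers. The series table repeats these ratios. From the intensities, background was corrected (normexp, offset 50) and arrays were normalised by loess in limma 3.58.1 under R 4.3.3. Control spots had weight 0, spots with an outlier flag were dropped, and the remaining spots of each probe were averaged. Probes were named through the RefSeq table of GRCr8 (17998 of 30367). Tested were probes that at least 2 of 8 arrays showed well above background, in Cy5 or Cy3 (25296, after 67 with a missing value were left out). The CAT-SKL+ADDL arrays were averaged into 1 sample, so 7 samples shared 1 estimate of the spread (3 residual degrees of freedom, 5.07 from the prior), from which the single CAT-SKL+ADDL sample took its error. Comparisons used lmFit and eBayes, two-sided, with Benjamini-Hochberg adjustment over all probes and a threshold of 0.05. Testing a ratio against 0 ignores how vehicle cultures vary, and the p-values measure only the spread between these samples, which may be partly technical. The fit was tested on simulated data.

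The genes and lists were chosen with earlier results of these data known. All member probes are named. Of other chaperones, those that passed are named (at most 4 per list and comparison), and Bag3 and Hsf1 always. The alternatives tried were 8 separate samples, a replicate block, median centring, no background correction, the deposited log ratios, other filters on dim probes, 1 probe per gene and leaving out each array. Marker and folding lists used the brightest tested probe of a gene.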

Additional observations from a re-analysis of the deposited data

How the results depend on the processing

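The number of chaperone probes called depended on the processing, always with higher values called. After CAT-SKL it was 2, and became 5 with median centring, 1 without background correction, 0 on the deposited log ratios and 1 (of 9) with 1 probe per gene. Leaving out 1 array gave 0 to 2: 0 without CAT-SKL 1, 1 without CAT-SKL 2 or any ADDL or ADDL+CAT-SKL array. After ADDL+CAT-SKL it was 1, and became 2 with 8 separate samples and 0 without background correction, on the deposited log ratios or without a filter on dim probes, and 0 to 1 on leaving out 1 array, 0 without any array of the CAT-SKL, ADDL or ADDL+CAT-SKL groups. After ADDL it was 0, and became 1 with 8 separate samples or median centring. After CAT-SKL+ADDL it was 0, and became 4 with 8 separate samples and 3 with median centring. With 8 samples and a replicate block the counts were 3 after CAT-SKL, 1 after ADDL, 4 after CAT-SKL+ADDL and 1 after ADDL+CAT-SKL. No pairing by replicate number was seen: differences between replicates 1 and 2 correlated at -0.191 to 0.0678 between treatments. Values with CAT-SKL+ADDL (-0.00418 to 0.0312) could hardly show a pairing, because the differences between its arrays did not recur between spots. The remaining values were -0.0876, 0.0678 and -0.191. Between treatments the count was 0 under every setting run. Hspb1 after CAT-SKL passed under the block (adjusted p = 0.0366) and without CAT-SKL 2 (0.63, adjusted p = 0.0430). Over all probes, the 553 called after CAT-SKL (161 higher, 392 lower) became 1939 with 8 samples, 1464 with the block, 1846 with median centring (1418 higher, 428 lower), 890 with probes above background throughout, 257 without a filter, 0 on the deposited ratios and 2 without CAT-SKL 1. Those after ADDL (0) became 1016, 694 and 428 under the first 3 of these settings, those after CAT-SKL+ADDL (0) 2525, 2193 and 275, and those after ADDL+CAT-SKL (75) 883, 475 and 304. The last also became 0 without background correction, without a filter and on the deposited ratios. Leaving out 1 array gave 2 to 553, 0 to 315, 0 to 4 and 0 to 75 in this order, and between treatments at most 15 in any setting, where 0 had been called. Median centring turned the sign of up to 8 of 16 uncalled chaperone means against vehicle (after CAT-SKL+ADDL) and the deposited ratios that of up to 4; between treatments they turned 4 to 6 and 0 to 3. Except where fewer samples or genes entered, the cause was not tested. The raw signal of Hspb1 lay nearer to background than that of the other chaperone probes, and the effect of this on its ratios was not tested.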
